A study of Mus musculus with 10 samples.

Results

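Genes that respond to glucocorticoid hormone were followed in the posterior eye wall of 5 wild-type C57BL/6J mice, in 1 library from the right eye (n = 5) and 1 from the left eye (n = 5) of each animal. The 9 genes were Nr3c1, Hsd11b1, Fkbp5, Zbtb16, Tsc22d3, Klf9, Sgk1, Pdk4 and Cdkn1a. They were taken by gene name from the 26360 genes of the deposited table, and all 9 were present and passed the filter on low values. They were selected on values from these same libraries, as hormone-responsive genes that fellow eyes share. The agreement between the fellow eyes of an animal is therefore given as a description, with no test of it. The tissue was retinal pigment epithelium (RPE), choroid and sclera at postnatal day 34. A -20 D lens, which induces myopia in young animals, had been worn over 1 eye for 10 days from postnatal day 24, and every animal had been injected with ketamine and xylazine for its fitting. The other eye of the same animal served as the untreated eye, and the labels do not say whether it was the right or the left. A right minus left difference therefore has no treatment direction, and the animals are named 61, 64, 65, 66 and 68 after the number in their library titles.

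Glucocorticoids are steroid hormones of the adrenal cortex that circulate in the blood and so reach every tissue of an animal, with levels that follow the time of day and rise under stress. They bind a receptor held in the cytoplasm by chaperones. The receptor then enters the nucleus and binds paired, inverted sites in DNA near its target genes. In the eye the hormones are known for raising pressure through the outflow tissue and for damping inflammation. The 9 genes fall into the receptor (Nr3c1), the enzyme that regenerates active hormone inside cells (Hsd11b1), a receptor co-chaperone that gives negative feedback (Fkbp5), transcriptional regulators among the targets (Zbtb16, Tsc22d3, Klf9), a target kinase (Sgk1), and a pair of genes under several inputs besides the hormone (Pdk4, Cdkn1a).

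Promoter sequence is shown for 4 of the genes, because it separates a gene with a complete receptor site close to a start from genes without one there. RefSeq windows (GRCm38.p6) from 250 bases before to 50 bases after a transcript start were found for 7 of the 9 genes, 15 windows in all, and the bases before the start are printed 5′ to 3′ on the strand of the gene. The full receptor palindrome was searched as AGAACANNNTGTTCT, a shorter core as GNACANNNTGTNC, and a single arm as AGAACA. The motif CATGNNNNNNCATG stands for the paired cores of a p53 site. All were searched on both strands, and every full palindrome also holds the core and the arm. Capitals mark matches to any of these.

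Sgk1 (chr10:21993640-21993889, plus strand): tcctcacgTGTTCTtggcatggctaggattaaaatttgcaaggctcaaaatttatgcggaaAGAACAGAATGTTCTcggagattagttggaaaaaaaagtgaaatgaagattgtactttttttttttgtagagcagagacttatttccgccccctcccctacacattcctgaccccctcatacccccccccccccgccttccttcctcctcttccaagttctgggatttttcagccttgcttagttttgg

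Tsc22d3 (chrX:140600523-140600772, minus strand): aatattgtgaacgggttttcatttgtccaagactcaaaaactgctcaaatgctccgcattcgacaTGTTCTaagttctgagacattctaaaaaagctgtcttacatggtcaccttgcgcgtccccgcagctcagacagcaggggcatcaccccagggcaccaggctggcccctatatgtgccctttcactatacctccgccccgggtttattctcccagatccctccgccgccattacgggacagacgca

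Fkbp5 (chr17:28486150-28486399, minus strand): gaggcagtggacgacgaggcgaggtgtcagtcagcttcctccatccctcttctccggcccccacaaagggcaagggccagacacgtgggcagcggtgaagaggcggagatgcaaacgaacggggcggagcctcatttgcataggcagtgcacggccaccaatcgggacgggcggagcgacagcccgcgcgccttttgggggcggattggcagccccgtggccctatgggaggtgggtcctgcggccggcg

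Cdkn1a (chr17:29090729-29090978, plus strand): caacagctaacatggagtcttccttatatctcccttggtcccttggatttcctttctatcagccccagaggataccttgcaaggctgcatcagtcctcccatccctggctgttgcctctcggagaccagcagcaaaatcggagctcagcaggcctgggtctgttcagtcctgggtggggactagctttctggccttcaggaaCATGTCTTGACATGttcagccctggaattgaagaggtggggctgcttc

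The full palindrome stood in 1 of the 15 windows, the printed one of 6 windows of Sgk1, where it began 189 bases before the start of that window's transcript. Over all 32851 windows of the same length 3 held it (0.00913%), and the core was in 156 of them (0.475%). The single arm was in 4 of the 15 windows, of Sgk1 and Tsc22d3, against 19.0% of all windows. The p53 pair lay in a window of Cdkn1a, beginning 48 bases before the start, and in 0.712% of all windows. The Fkbp5 window held no match. A match describes letters and not a bound site, and these windows leave out most of the DNA around each gene.

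Library totals implied by the steps between low values were 66.9 to 94.2 M reads (median 79.3 M), of which 42.7% to 47.1% fell on the listed genes. Values are reads scaled to the library total (CPM, counts per M reads). Markers fixed for the tissue were abundant in every library, with 10 RPE genes summing to 6213 to 8292 CPM in right and 6094 to 6968 CPM in left eyes, and 8 scleral fibroblast genes to 6793 to 9549 CPM in right and 6481 to 9462 CPM in left eyes. Markers of other tissue varied between libraries, as 10 skeletal muscle genes did (3574 to 7447 CPM in right and 2000 to 9282 CPM in left eyes), and 6 rod genes (108 to 1598 CPM in right and 178 to 759 CPM in left eyes). The extraction notes in the labels speak of retinae, while the tissue label names RPE, choroid and sclera. In bulk tissue a change in the number of cells cannot be told apart from a change in RNA per cell. Per kilobase of merged exons, the order of the mean levels was Sgk1 (61.3), Tsc22d3 (34.8), Klf9 (18.6), Nr3c1 (11.6), Zbtb16 (5.69), Pdk4 (2.90), Fkbp5 (2.58), Cdkn1a (0.627) and Hsd11b1 (0.547), in CPM per kb. The ranges over the 10 libraries overlapped for Zbtb16 (2.99 to 10.7), Pdk4 (0.937 to 7.65) and Fkbp5 (1.60 to 4.65), and for Cdkn1a (0.487 to 0.816) and Hsd11b1 (0.419 to 0.802). The highest Zbtb16 library also passed the lowest Nr3c1 library (10.6), and no other neighbours in this order overlapped.

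The receptor was even across animals. Ratios of 1 animal to the mean of the others are in CPM, and spans of animal means and differences of fellow eyes are folds on log2(CPM + 0.230), which understate those of low genes. Nr3c1, the glucocorticoid receptor, was at 91.4, 85.1, 88.3, 95.1 and 81.6 CPM in the right eyes of animals 61, 64, 65, 66 and 68, against 96.2, 88.1, 86.8, 85.5 and 93.5 CPM in their left eyes. Highest and lowest libraries differed by 1.18-fold, and no animal stood apart with both eyes. Its animal means spanned 1.08-fold, a range smaller than that of all but 7.53% of the genes tested.

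Hsd11b1 encodes 11-beta-hydroxysteroid dehydrogenase type 1, which turns inactive 11-ketosteroid into active hormone (chr1:193221634-193264075, minus strand, GRCm38). It was at 3.41, 2.14, 2.33, 1.80 and 1.78 CPM in right eyes (animals 61, 64, 65, 66 and 68), against 3.31, 2.08, 2.36, 2.08 and 1.96 CPM in left eyes. Both eyes of animal 61 were above all 8 other eyes, and its mean of 3.36 CPM was 1.63-fold the mean of the other animals. The remaining 4 animals lay within 1.87 to 2.35 CPM. The lowest library held about 139 implied reads of this gene, a counting error of 8.48%. Fellow eyes differed by at most 1.13-fold. The gene overlaps Lamb3 on the opposite strand (0.799 to 2.96 CPM in right and 1.35 to 2.51 CPM in left eyes), and no source used here says whether counting used strand.

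Fkbp5 encodes a co-chaperone that lowers the affinity of the receptor for hormone and is itself induced by it (chr17:28399094-28517527, minus strand). It was at 36.1 CPM in the right eye of animal 68, against 44.0 CPM in the left eye. The right eyes of animals 61, 64, 65 and 66 were at 17.2, 27.1, 19.6 and 16.6 CPM, against 20.3, 28.6, 19.3 and 15.1 CPM in left eyes. Animal 68 was highest with both eyes, animal 64 came next with both eyes, and animal 66 was lowest with both eyes. Animal means spanned 2.50-fold, between 15.9 CPM in animal 66 and 40.1 CPM in animal 68, and the fellow eyes of an animal differed by 1.01-fold to 1.22-fold.

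Zbtb16, which encodes the zinc finger repressor PLZF and is a strong target of the receptor in many tissues (chr9:48654297-48836222, minus strand), had a similar outline. Its right eyes were at 15.8, 30.5, 31.0, 19.8 and 46.8 CPM in animals 61, 64, 65, 66 and 68, against 18.5, 32.4, 29.6, 19.4 and 56.5 CPM in left eyes. Again both eyes of animal 68 were the highest, but here both eyes of animal 61 were the lowest. Animal means spanned 2.98-fold, between 17.2 CPM in animal 61 and 51.7 CPM in animal 68. Fellow eyes differed by 1.02-fold to 1.21-fold.

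Tsc22d3 encodes GILZ, a leucine zipper protein that mediates anti-inflammatory actions of the hormone (chrX:140539528-140600659, minus strand). Right eyes of animals 61, 64, 65, 66 and 68 held 149, 162, 128, 132 and 189 CPM, against 150, 178, 106, 122 and 194 CPM in left eyes. Animals 68 and 64 were the highest with both eyes and animals 65 and 66 the lowest, and animal 68 was at 1.36-fold the mean of the others. Klf9, a Krüppel-like transcription factor and direct target of the receptor (chr19:23141226-23168134, plus strand), was at 84.8, 93.2, 91.8, 77.2 and 102 CPM in right eyes of the same animals, against 84.3, 101, 81.1, 65.8 and 114 CPM in left eyes. Both eyes of animal 68 were above all others and both eyes of animal 66 below all others, with animal means that spanned 1.51-fold.

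Sgk1, a kinase that stimulates sodium transport and carries the complete receptor palindrome printed above (chr10:21882184-21999903, plus strand), did not follow this outline. Its right eyes were at 302, 359, 310, 267 and 287 CPM in animals 61, 64, 65, 66 and 68, against 278, 323, 284, 299 and 297 CPM in left eyes. Here both eyes of animal 64 were the highest, animal 68 was at 0.965 of the mean of the others, and animal means spanned 1.21-fold.

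Pdk4 encodes pyruvate dehydrogenase kinase 4, which rises in fasting and shifts cells from glucose to fat (chr6:5483351-5496309, minus strand). Right eyes held 26.9, 5.83, 4.64, 7.48 and 6.81 CPM in animals 61, 64, 65, 66 and 68, against 20.7, 10.7, 9.21, 3.29 and 6.27 CPM in left eyes. Both eyes of animal 61 were above all others, at 3.51-fold the mean of the other animals. Fellow eyes were less alike for this gene than for the other 8, with differences of 1.08-fold to 2.19-fold. Cdkn1a encodes p21, an inhibitor of cyclin-dependent kinases that is also a p53 target (chr17:29090976-29100727, plus strand). It was at 2.68, 1.79, 2.17, 2.90 and 1.85 CPM in right eyes of animals 61, 64, 65, 66 and 68, against 2.24, 2.38, 1.73, 2.33 and 2.20 CPM in left eyes. No animal stood apart with both eyes, and the lowest library held about 130 implied reads, a counting error of 8.77%.

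**Figure D1:**
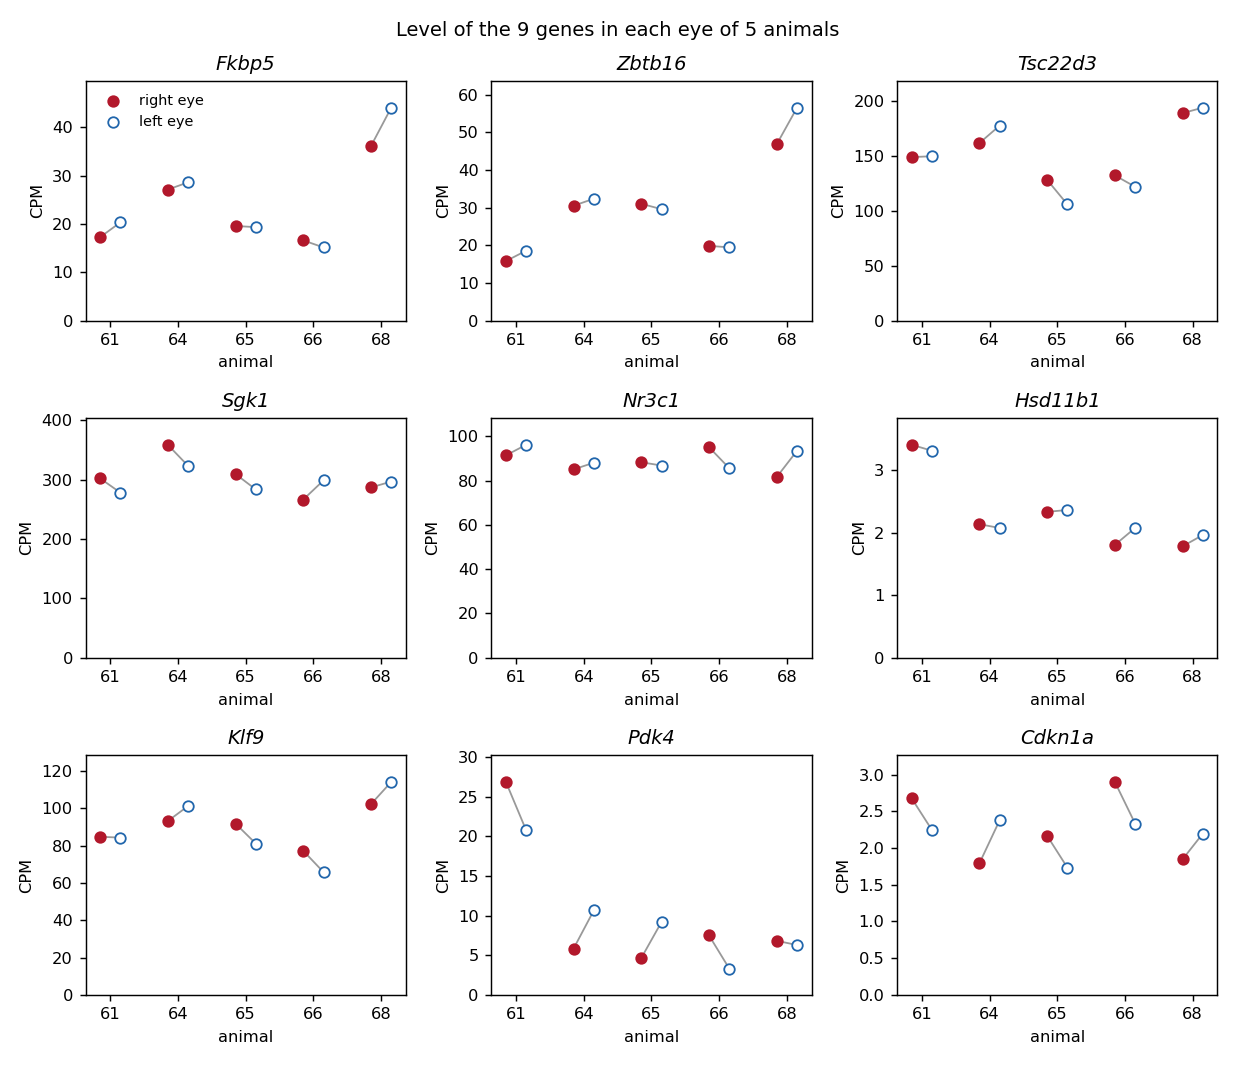
Level in CPM (vertical axes, from 0) of each of the 9 genes in the right eye (filled) and left eye (open) of animals 61, 64, 65, 66 and 68 (horizontal axes), with a line joining fellow eyes. Animal 68 holds the 2 highest eyes for Fkbp5, Zbtb16, Tsc22d3 and Klf9, and animal 61 for Hsd11b1 and Pdk4.

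To put the fellow eyes beside eyes of different animals, the mean absolute log2 difference of the 5 fellow pairs was divided by that of the 40 pairs of eyes from different animals, on log2(CPM + 0.230). The pseudocount makes differences of low genes look smaller. A ratio near 1 means that fellow eyes were no more alike than unrelated eyes. It was 0.178 for Zbtb16, 0.219 for Hsd11b1, 0.230 for Fkbp5, 0.309 for Tsc22d3 and 0.488 for Klf9. Further up were Pdk4 at 0.624, Sgk1 at 0.867, Cdkn1a at 1.09 and Nr3c1 at 1.10. In fold terms, fellow eyes differed by 1.10-fold on average and eyes of different animals by 1.70-fold for Zbtb16, and for Fkbp5 fellow eyes differed by 1.11-fold and eyes of different animals by 1.57-fold. Of the 9 genes 5 had a ratio of at most 0.5, and over all 15414 genes tested 5.7% did. The median ratio was 0.488 over the 9 genes and 0.960 over all genes. As the genes were selected on this agreement, nothing is read from these shares.

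Single animals carried some of these ratios. Without animal 61 the ratio was 0.515 for Hsd11b1 and 1.28 for Pdk4, and without animal 64 it was 1.43 for Sgk1. Those of Zbtb16 (0.144 to 0.210), Fkbp5 (0.172 to 0.272) and Tsc22d3 (0.193 to 0.428) stayed below 0.5 with each animal or library left out in turn. Klf9 lay between 0.389 and 0.572 in the same settings, on both sides of 0.5.

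**Figure D2:**
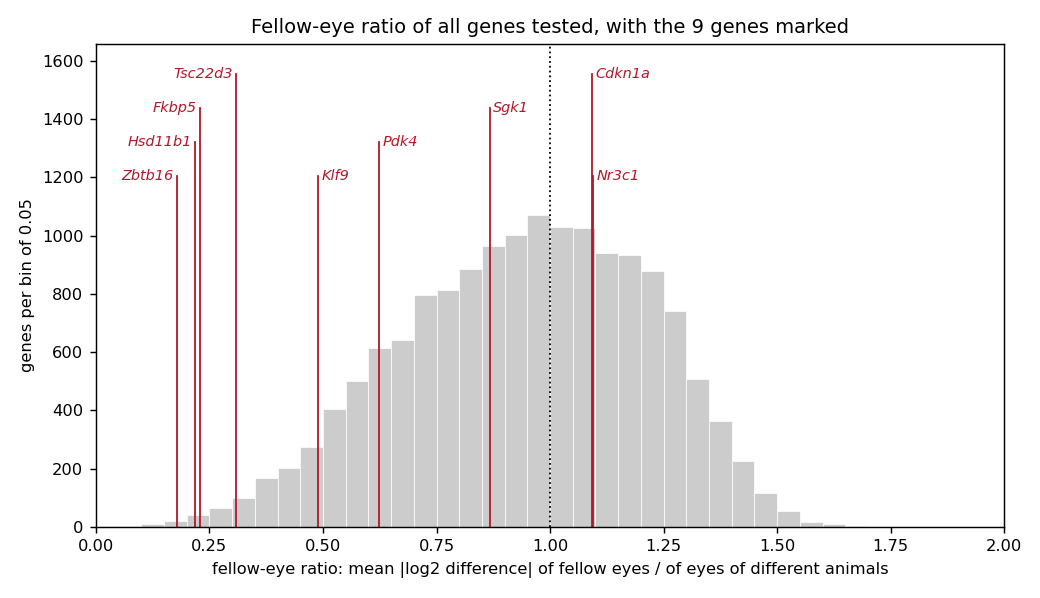
Distribution of the fellow-eye ratio (horizontal axis, no unit) over all 15414 genes tested (vertical axis, genes per bin of 0.05), with the 9 genes marked by lines and a dotted line at 1. Zbtb16, Hsd11b1, Fkbp5 and Tsc22d3 lie in the lower tail between 0.178 and 0.309, and Nr3c1 and Cdkn1a lie just above 1.

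Both eyes of animal 68 were the 2 highest of the 10 libraries for 4 of the 9 genes (Fkbp5, Zbtb16, Tsc22d3 and Klf9), and this held for 2.41% of all genes tested. Both eyes of animal 61 were the highest for 2 (Hsd11b1 and Pdk4), and for 6.64% of all genes tested. Some animal held the 2 highest eyes for 7 of the 9 genes and for 15.1% of all genes.

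Markers that differed between the animals are given here beside these genes. Xist stood at 729 to 868 CPM in the eyes of animals 61 and 65 and at 0.913 to 5.86 CPM in those of animals 64, 66 and 68. The 4 Y-linked genes reached at most 0.0718 CPM in animals 61 and 65, against 21.0 to 55.4 CPM in the others, so the animals were of both sexes, and the part of sex in the levels of the 9 genes was not tested. The 6 rod markers all had their highest mean in animal 68, where they summed to 1598 CPM in the right and 198 CPM in the left eye. Red cell markers summed to 1253 CPM in the right and 1098 CPM in the left eye of animal 66, whose eyes were the lowest for Fkbp5 and Klf9, against 643 to 800 CPM in the other right and 575 to 1002 CPM in the other left eyes. Of the 6 red cell genes 5 were highest in both eyes of that animal, beside 2.67% of all genes tested. Skeletal muscle markers summed to 4160 CPM in the right and 9282 CPM in the left eye of animal 68, whose Fkbp5 was at 36.1 CPM in the right and 44.0 CPM in the left eye. In animal 66 they summed to 7447 CPM in the right and 2000 CPM in the left eye, with Fkbp5 at 16.6 CPM in the right and 15.1 CPM in the left eye and Pdk4 at 7.48 CPM in the right and 3.29 CPM in the left eye. With the mean of the muscle genes as a covariate the right minus left difference of Pdk4 was 0.11 on the log2 scale, against -0.04 without it, so that its sign turned, and it was called in neither fit. Averaged over both eyes, the muscle markers summed to 6721 CPM in animal 68 and 6517 CPM in animal 64, against 3963 to 4723 CPM in the others. Animal 64 had 4207 CPM in the right and 8827 CPM in the left eye, with Fkbp5 at 27.1 and 28.6 CPM. Animal 61 had 4722 CPM in the right and 4246 CPM in the left eye, with Fkbp5 at 17.2 and 20.3 CPM. The covariate was not used for the fellow-eye ratios. The part of muscle, rod and red cell markers in the animal levels of the 9 genes was not tested.

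The labelled contrast between eyes was tested with limma on the same scale, with the animal as a block. None of the 9 genes passed the threshold between right and left eyes (adjusted p = 0.9998 in limma for each), and 0% of the 15414 genes tested were called. At an unadjusted p under 0.05 limma counted 0 of the 9 genes and 430 of all genes, and with robust moderation it also called 0 genes after adjustment. Fkbp5 averaged 23.3 ± 8.27 CPM in right and 25.5 ± 11.5 CPM in left eyes (SD, n = 5 each), a log2 difference of -0.09 ± 0.07 (SE) with a 95% interval from -0.26 to 0.08. Zbtb16 averaged 28.8 ± 12.1 CPM in right and 31.3 ± 15.4 CPM in left eyes, a log2 difference of -0.10 ± 0.07 (SE) with a 95% interval from -0.25 to 0.06. For both the right eye was higher in 2 of 5 animals. Nr3c1 averaged 88.3 ± 5.26 CPM in right and 90.01 ± 4.58 CPM in left eyes, with a 95% interval of the log2 difference from -0.16 to 0.11. Tsc22d3 (152 ± 24.7 CPM in right and 150 ± 36.9 CPM in left eyes), Klf9 (89.8 ± 9.40 CPM in right and 89.3 ± 18.8 CPM in left eyes) and Sgk1 (304.9 ± 34.4 CPM in right and 296 ± 17.5 CPM in left eyes) had log2 differences of 0.03 to 0.04. Their 95% intervals ran from -0.13 at the lowest to 0.20 at the highest. Hsd11b1 was at 2.29 ± 0.665 CPM in right and 2.36 ± 0.553 CPM in left eyes, with a 95% interval of the log2 difference from -0.28 to 0.18. Cdkn1a was at 2.28 ± 0.495 CPM in right and 2.18 ± 0.259 CPM in left eyes, with a 95% interval from -0.29 to 0.38. Pdk4 (10.3 ± 9.30 CPM in right and 10.0 ± 6.62 CPM in left eyes) was measured least tightly, with a 95% interval of the log2 difference from -0.73 to 0.66.

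**Figure D3:**
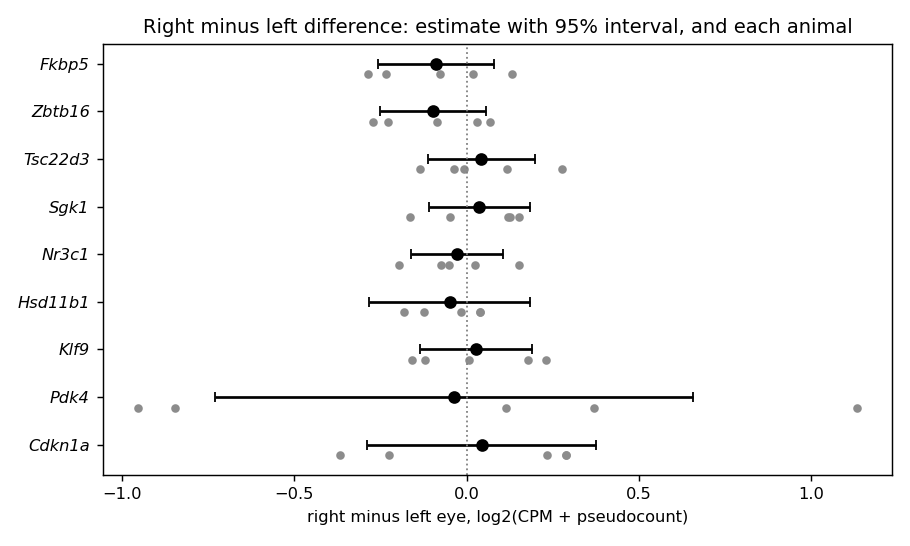
Right minus left difference in log2(CPM + pseudocount) (horizontal axis) of the 9 genes, as the limma estimate with its 95% interval (black) and as the difference in each of 5 animals (grey points below it). All 9 intervals include 0, and that of Pdk4 (-0.73 to 0.66) is the widest.

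Other genes of the pathway were read from 6 lists of 113 genes, of which 104 passed the filter on low values. In the right minus left test 0 of the 104 were called in either direction (6 at an unadjusted p under 0.05), with 0 also called under robust moderation. An F test of the animal terms (limma, Benjamini-Hochberg adjustment) was read for these lists. It called 0 of the 104 and 13 of all genes, or 0.0843%, and 5 of those 13 were Xist or Y-linked genes. Kdm6a and Eif2s3x, named after their values were seen, lie on the X chromosome and were also called. Their highest means were in animals 65 and 61, where Xist was high. At an unadjusted p under 0.05 the F test counted 42 of the 104, against 1113 of all 15414 genes (7.22%). The fellow-eye ratio of the list genes was at most 0.5 in 26 of 104 (25%), beside 5.7% of all genes. The lists were chosen with earlier results of these data known, so nothing is read from these shares.

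Of 13 tested genes that hold or help the receptor, none was called in either test. The median of their animal ranges was 1.17-fold, beside 1.21-fold for all genes, and 2 had a ratio of at most 0.5. Some animal held the 2 highest eyes for 8 of the 13, beside 15.1% of all genes. For 4 chaperone genes (Hsp90ab1, Hspa8, Fkbp4 and Stip1) this was animal 66, as for 2.67% of all genes, and these 4 were picked out after their values were seen. Hspa8, a constitutive heat shock chaperone, was at 466 ± 37.4 CPM in right and 438 ± 36.6 CPM in left eyes (SD, n = 5 each). Hsp90aa1, the chaperone that holds the receptor ready for hormone, was at 225 ± 19.7 CPM in right and 205 ± 4.55 CPM in left eyes. H6pd, which supplies the cofactor of the Hsd11b1 enzyme and was named after its values were seen, had its highest mean in animal 61 (30.4 CPM, with both eyes above all others) as Hsd11b1 did. Hsd11b2, which inactivates the hormone and was also named after its values were seen, was at 0 to 0.0838 CPM in right and 0 to 0.0119 CPM in left eyes, where 3 reads of a library are worth 0.0318 to 0.0448 CPM.

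Among 34 tested genes of the list of other hormone-responsive genes, none was called in either test, the median animal range was 1.49-fold and 6 had a ratio of at most 0.5. Glul, glutamine synthetase, was at 810 ± 65.5 CPM in right and 837 ± 42.3 CPM in left eyes, and Pik3r1, a regulatory subunit of PI3 kinase, at 187 ± 12.0 CPM in right and 183 ± 12.0 CPM in left eyes. Both spanned little between animals, 1.12-fold and 1.13-fold. The next 4 were named after their values were seen. Hif3a, a hypoxia-inducible factor subunit, had animal means of 4.97, 7.33, 6.69, 3.14 and 7.71 CPM in animals 61, 64, 65, 66 and 68. Ddit4, an inhibitor of mTOR signalling, had 10.4, 15.7, 12.4, 15.4 and 17.4 CPM, with both eyes of animal 68 highest. Per1, a clock gene that the hormone also induces, had 27.7, 43.0, 30.1, 25.03 and 34.7 CPM, so that animal 64 and not animal 68 was highest. Angptl4, a lipase inhibitor induced in fasting, had 10.5, 6.33, 5.72, 4.91 and 8.19 CPM and was highest in animal 61, as Pdk4 was. Both eyes of animal 68 were the highest for 2 of the 34, beside 2.41% of all genes. They were the lowest for Dusp1, Mt1 and Mt2, as for 5.66% of all genes, and these were also named after their values were seen. Animal 68 was there at 0.563, 0.667 and 0.712 of the mean of the others.

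In the list of FOXO and fasting-responsive genes (19 tested) 3 had a ratio of at most 0.5. Sesn3, a stress-induced sestrin, was at 235 ± 18.7 CPM in right and 228 ± 14.7 CPM in left eyes. Txnip, a glucose-responsive inhibitor of thioredoxin, was at 210 ± 31.9 CPM in right and 208 ± 33.6 CPM in left eyes and highest in animal 61. Cpt1a, the gate of fatty acid entry into mitochondria, named after its values were seen, averaged 106 CPM in animal 61, with both eyes above all others, and 70.9 to 86.6 CPM in the other animals. For p53-responsive genes (13 tested, 3 with a ratio of at most 0.5) Ccng1, a cyclin, was at 49.0 ± 3.94 CPM in right and 52.6 ± 8.61 CPM in left eyes. Trp53inp1, a p53-induced nuclear protein, was at 37.0 ± 8.17 CPM in right and 37.8 ± 6.93 CPM in left eyes. Its ratio was 0.203, and both eyes of animal 68 were the highest. Immediate early genes, which respond to handling within minutes, had 2 of 11 tested at a ratio of at most 0.5, and Jun, a subunit of the AP-1 factor, had animal means of 14.4 to 18.0 CPM. Btg2, an antiproliferative gene on both of these lists, was at 16.3 ± 2.33 CPM in right and 18.4 ± 3.35 CPM in left eyes. Summed over the 15 listed early genes the level was 62.2 CPM in the right and 80.7 CPM in the left eye of animal 68, against 69.8 to 95.8 CPM in the other right and 85.1 to 108 CPM in the other left eyes.

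Of 15 clock genes 10 had a ratio of at most 0.5, beside 5.7% of all genes, and the median ratio was 0.350. As for the other lists, nothing is read from this share. For 6 of the 15 both eyes of animal 66 were the lowest, beside 1.49% of all genes tested, and they were also the lowest for Fkbp5 and Klf9. For 3 of the 15 both eyes of animal 66 were instead the highest, beside 2.67% of all genes tested. Tef had animal means of 178, 196, 169, 148 and 189 CPM and Nr1d2 of 114, 136, 106, 84.9 and 134 CPM in animals 61, 64, 65, 66 and 68, so animal 64 was highest, animal 68 second and animal 66 lowest. Nr1d1, named after its values were seen, was 2.54-fold the mean of the other animals in animal 64 and 0.999 of it in animal 68. Dbp, a clock-driven factor also named after its values were seen, had animal means of 28.3, 43.0, 30.1, 20.9 and 35.8 CPM in animals 61, 64, 65, 66 and 68.

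The genes nearest in pattern were found for the 3 members with the widest animal means, Pdk4, Zbtb16 and Fkbp5. Likeness was the root mean square distance of centred log2 values over the 10 libraries, among 9797 genes averaging 5 CPM or more. Predicted loci, with symbols of Gm and digits or ending in Rik, were left out of these candidates. Zbtb16 was nearest to Fkbp5 (0.250) and Fkbp5 to Zbtb16, against 0.482 for Fkbp5 and 0.563 for Zbtb16 from their own means. After Zbtb16, Fkbp5 was followed by Stk17b, a kinase (0.251), and Klf15, a Krüppel-like factor of metabolism (0.270). Klf15 had animal means of 10.4, 14.7, 10.4, 9.39 and 14.2 CPM in animals 61, 64, 65, 66 and 68. Zbtb16 was followed by Akap6, an anchoring protein of muscle (0.356), and Map3k6, a stress kinase (0.363). Nearest to Pdk4, at 0.488 to 0.565 against 0.859 for Pdk4 from its own mean, were Fmo2, Angptl7 and Cd163. Fmo2 is a flavin monooxygenase, Angptl7 a secreted angiopoietin-like protein of the outflow tissue and cornea, and Cd163 a scavenger receptor of macrophages. Fmo2 had animal means of 92.9 CPM in animal 61 and 35.8 to 49.9 CPM in the others, and Angptl7 of 709 CPM in animal 61 and 281 to 438 CPM in the others. Cd163 was at 14.7 CPM in the right and 13.1 CPM in the left eye of animal 61, against 4.97 to 8.26 CPM in the other right and 6.89 to 10.4 CPM in the other left eyes. The 6 leukocyte markers summed to 129 CPM in the right and 124 CPM in the left eye of animal 61. The other right eyes were at 110 to 133 CPM and the other left eyes at 107 to 118 CPM. The mean of these markers was highest in animal 61 (127 CPM), and their part in the level of Cd163 was not tested.

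Transcripts inside Fkbp5 gave a further reading of that locus, named after their values were seen. The annotated genes Gm49838 (chr17:28424723-28426430) and Gm49839 (chr17:28457484-28461095) lie on the same strand within introns of Fkbp5 and touch none of its annotated exons. Gm49838 was at 1.29, 5.57, 2.27, 1.29 and 5.72 CPM in right eyes of animals 61, 64, 65, 66 and 68, against 1.68, 5.99, 2.14, 1.42 and 6.12 CPM in left eyes. Its ratio was 0.125 and animals 68 and 64 were the highest with both eyes, near each other. Gm49839 was at 4.27, 12.2, 3.65, 8.39 and 11.9 CPM in right eyes, against 4.12, 12.1, 5.19, 7.29 and 12.3 CPM in left eyes. In animal 64 both intronic genes were thus close to their level in animal 68, whereas Fkbp5 itself was at 27.8 CPM in animal 64, against 40.1 CPM in animal 68. Libraries of total RNA hold unspliced RNA, and reads of these genes cannot be told apart from those of Fkbp5 introns.

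**Figure D4:**
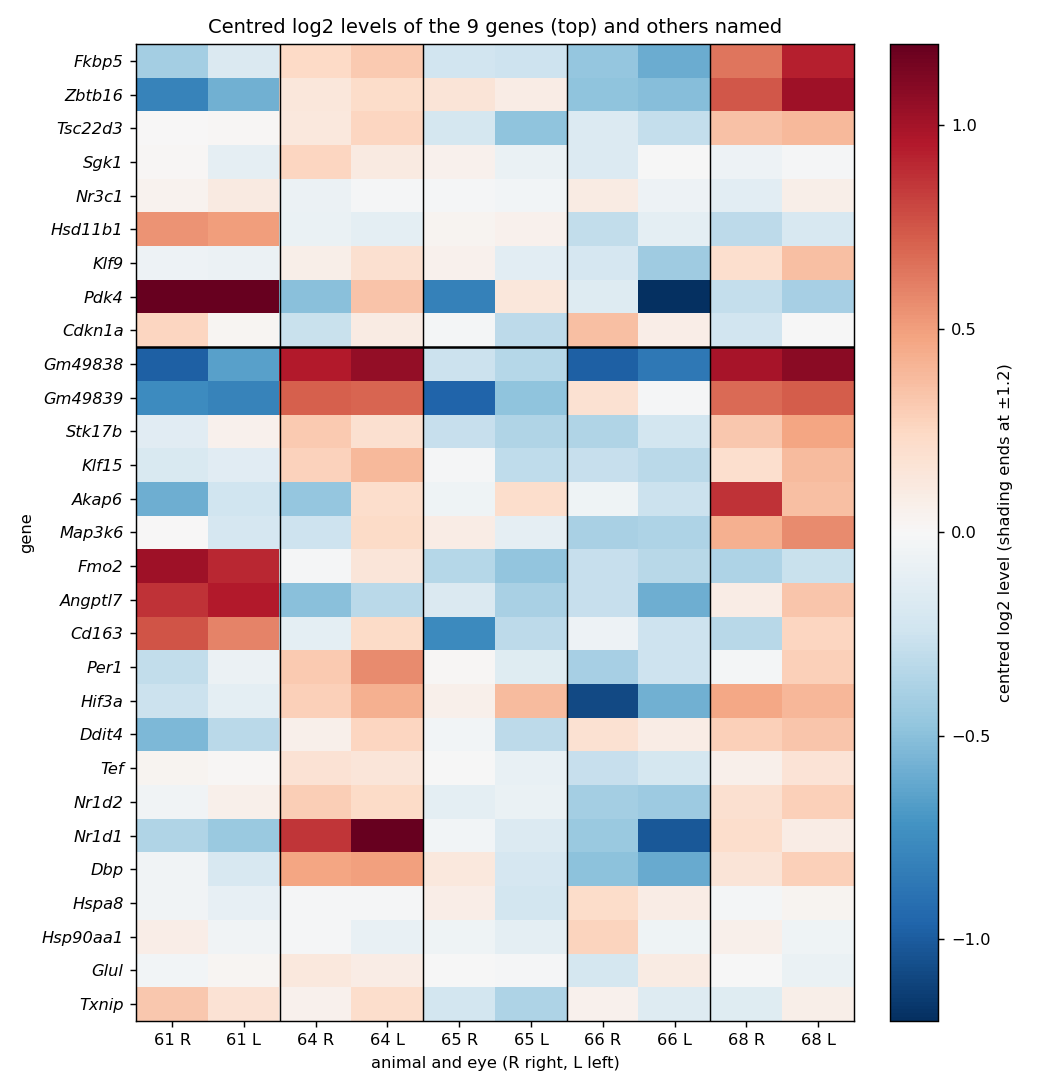
Centred log2 levels (colour, log2(CPM + 0.230) minus the gene's mean over 10 libraries) of the 9 genes (above the line) and other named genes (below it) in right (R) and left (L) eyes of the 5 animals. Columns of animal 68 are high for Fkbp5, Zbtb16, Tsc22d3 and Klf9, those of animal 61 for Hsd11b1, Pdk4, Fmo2 and Angptl7, and those of animal 64 for Nr1d1.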

How the data were processed

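The authors deposited normalized values that behave as CPM, and an added constant of 1e-04 was taken off. Per the submitters' processing notes STAR, Partek and GRCm38 (mm10) were used, while versions, annotation release and use of strand are not given there. Low values were whole multiples of a step in 88.9% to 89.8% of cases (tolerance 0.05), so depth could be implied but whole reads not recovered, and intervals on reads cover counting error only. Genes averaging 1 CPM or more entered (15414) as log2(CPM + 0.230). Limma 3.58.1 in R 4.3.3 (intensity trend, 4 residual degrees of freedom) had eye side and animal as terms, with Benjamini-Hochberg adjustment at 0.05 and all 10 libraries. Starts and ends (1-based) of the 9 genes equalled GENCODE M21, which also gave exon lengths.

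The members and lists were chosen with earlier results of these data known. Named genes were all members, the 2 most abundant of each list, any list gene called, and the 3 nearest in pattern to each of 3 members, and exceptions are stated. Fellow eyes come from the same animal, as the titles share its number. Their deviations from the side means correlated across genes over 0.1 in 2 of 5 animals. The correlations were 0.27, 0.11, 0.054, -0.19 and -0.055 in animals 61, 64, 65, 66 and 68. Libraries were counted as separate, since implied reads of all 45 pairs differed by more than counting error (chi-square 12.8 to 69.7 for each degree of freedom). Nothing says more of how animals were handled. The p-values of the right minus left test are set against the spread of fellow-eye differences over these 5 animals. Those of the F test set the animals against that same spread, and do not speak for other animals. Tests were checked on artificial data with known answers. Figures used matplotlib 3.10.9 in Python 3.11.15. Alternatives covered pseudocount, filter, scaling, block, moderation, a muscle covariate, the choice of pairs and of median or mean, and each animal or library left out.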

Additional observations from a re-analysis of the deposited data

Results flagged for a closer look

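In each of the 9 genes the highest or lowest of the 5 right eyes, and of the 5 left eyes, was compared with its nearest neighbour, and 2 of these 18 groups held an eye that stood apart by Dixon's criterion. About 1 in 20 groups is marked so by chance. Pdk4 in the right eye of animal 61 (26.9 CPM) stood above the 4 other right eyes by 0.872 of the whole range. Cdkn1a in the left eye of animal 65 (1.73 CPM) stood below the 4 other left eyes by 0.719 of the range.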

How the results depend on the processing

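The right minus left test called 0 genes in all 23 alternatives, and with no replicate block the count was also 0. No member was called in any of them, and the sign of the uncalled difference turned with animals or libraries left out for Tsc22d3 (-0.016 to 0.087), Nr3c1 (-0.074 to 0.013), Klf9 (-0.023 to 0.074), Pdk4 (-0.33 to 0.19) and Cdkn1a (-0.018 to 0.15). With the skeletal muscle covariate the sign of Pdk4 turned, to 0.11. The animal F test called 13 genes, 5 to 11 with an animal or library left out. It called 0 of the 104 other pathway genes in all 22 alternatives. The number of genes with a fellow-eye ratio of at most 0.5 was 879. It was 1340 with no filter, 2341 with median absolute differences, and 933 to 1578 with an animal or library left out. Of the 9 genes 3 to 6 had such a ratio when animals or libraries were left out, 3 of them without animal 61. The Sgk1 ratio was 1.202 with medians. Hsd11b1 and Cdkn1a fall below the stricter filter of 5 CPM and have no value there. The cause of these shifts was not tested. Depth limits Hsd11b1 and Cdkn1a most.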
